A study of Danio rerio with 9 samples.

Results

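The transcripts of the MHC class II molecules and of their invariant chain were followed in the zebrafish inner ear after acoustic trauma. Probes were taken where the array names the gene mhc2, cd74a or cd74b, or where its description joins class II with MHC or histocompatibility, or speaks of an invariant chain. This rule found 11 of the 21495 probes. Of these, 10 stand for class II chains or invariant chains, and the remaining one, rfx2, was found only through a description that calls its human relative a class II regulatory factor. A further 6 class II probes carry older clone names on the array and were recognized only through the current RefSeq gene table or through a clone name in their description, so that they are given beside the others and are not counted with them.

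The arrays compared whole inner ears of adult zebrafish in 3 groups: fish kept without sound (control), fish sampled 2 days after sound exposure (Day 2) and fish sampled 4 days after it (Day 4). The ears of 18 to 20 fish were combined into 1 RNA pool in each group, and each pool was hybridized with a single dye to 3 arrays. The arrays of a group are therefore technical replicates, and a P-value measures only the spread between hybridizations, since the fish within a group were not measured apart. In a pool of this kind, a change in the number of cells that carry a transcript and a change in the RNA of each cell cannot be told apart.

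Class II molecules are pairs of 1 alpha and 1 beta chain that carry peptides from engulfed material to the cell surface, where helper T cells read them. In vertebrates they are known chiefly from macrophages, dendritic cells and B cells. The invariant chain, which zebrafish make from the genes cd74a and cd74b, fills the groove of a new class II molecule and guides it to the compartment where cathepsins cut the invariant chain away and peptides are loaded. Class II loci differ between individuals and hold closely related gene copies, so that a probe may read several copies or miss a variant. Since each group was a pool of different fish, variants that differ between the pools cannot be told apart from a change with time.

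Levels are given as the log2 intensity over the median of the array (its 50th percentile), and an array is said to have measured a probe where every spot of the probe was well above background. A probe was called significantly regulated where its limma P-value, after Benjamini-Hochberg adjustment across the whole array, was 0.05 or less and its fold change was 1.4 or more. In Day 2:Control, 2 of the 11 probes passed, 1 higher and 1 lower, where 0.735% of all probes did. In Day 4:Control none passed, where 0.279% of all probes did, and in Day 4:Day 2 only the mhc2a probe passed, where 0.0651% did. None of the 6 further probes passed in any comparison. At an unadjusted P-value under 0.05 and the same fold change, Day 2:Control held 5 of the 11, where 5.7% of all probes did so. Day 4:Control held 4, where 6.98% of all did, and Day 4:Day 2 held 2, where 6.16% did. Of the 4 in Day 4:Control, 1 was rfx2 and 1 was the alpha chain probe a2, each measured on only 1 Day 4 array. The further probes gave 0, 3 and 3 by that measure.

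**Figure D1:**
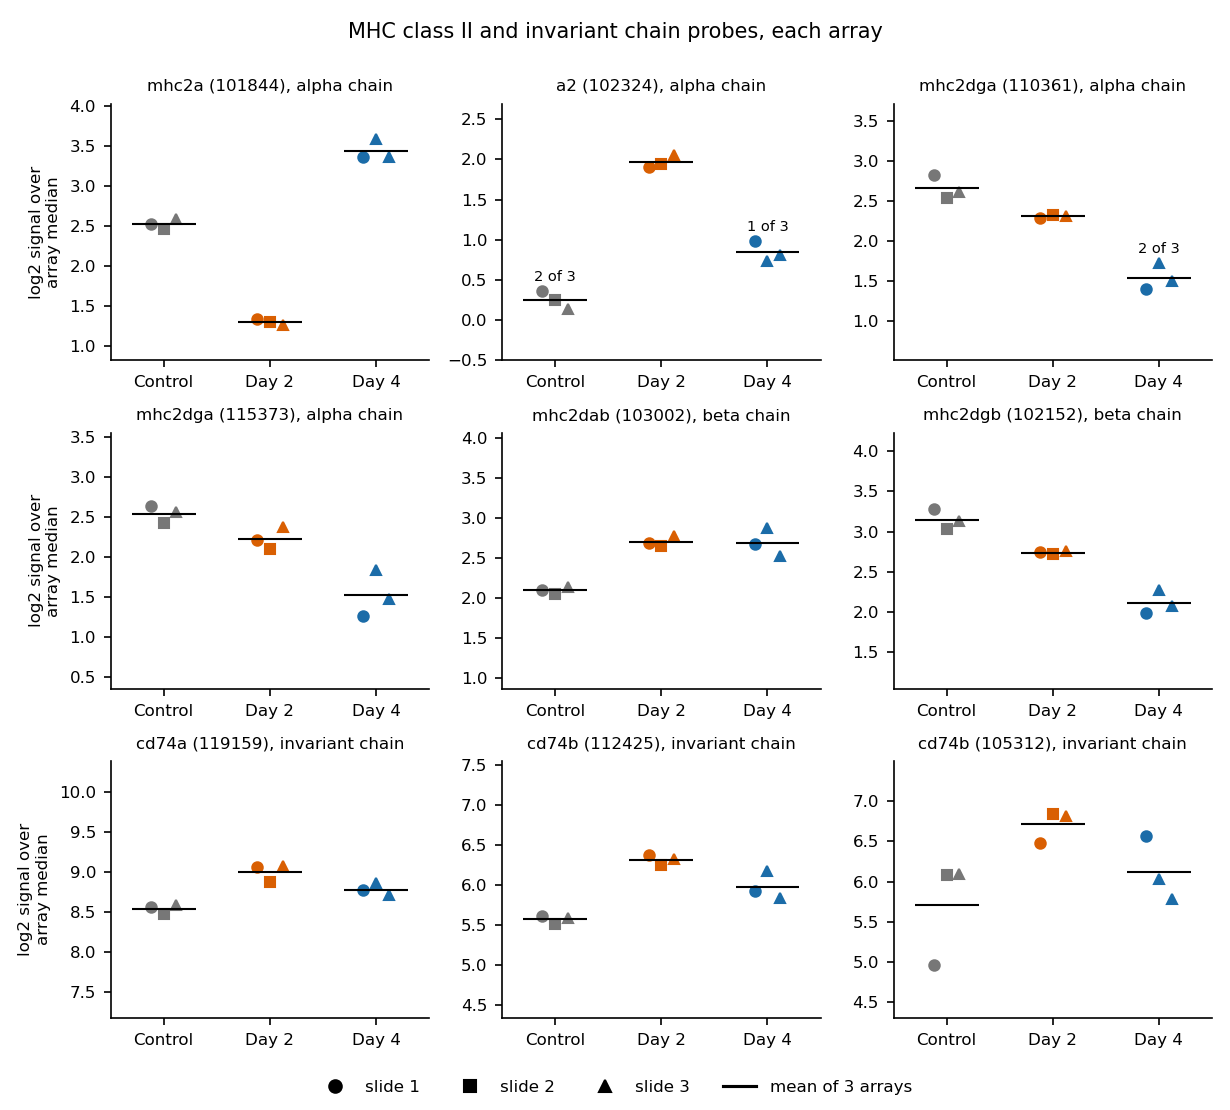
Log2 signal over the array median (vertical axis) of 9 class II and invariant chain probes on each of the 9 arrays, by group. All panels span the same range, the symbol gives the slide, the bar is the mean of 3 arrays, and a count such as 2 of 3 gives the arrays that measured the probe where not all did. The mhc2a probe was lowest on Day 2 and highest on Day 4, the a2 probe was highest on Day 2, and the mhc2dga and mhc2dgb probes were lowest on Day 4.

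Among the alpha chains, the probe of mhc2a (A_15_P101844, called a4 on the array) was measured on all 9 arrays. Its log2 levels were 2.52, 2.46 and 2.58 on the control arrays, 1.34, 1.30 and 1.27 on the Day 2 arrays, and 3.36, 3.59 and 3.36 on the Day 4 arrays. The 3 groups did not overlap, with Day 2 lowest and Day 4 highest. In Day 2:Control mhc2a fell by 1.22 on the log2 scale (SE 0.13, adjusted P-value 0.0250), which is a 2.33-fold lower signal. In Day 4:Day 2 it was 4.32-fold higher (log2 fold change 2.11, SE 0.13, adjusted P-value 0.0247). In Day 4:Control the log2 fold change was 0.89 (SE 0.13), and this value did not pass (adjusted P-value 0.113).

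Both calls of mhc2a were lost when most single arrays were left out. Without Day 4 replicate 2 both stood (adjusted P-values 0.0144 and 0.0468), and without any one of the other 8 arrays neither did (0.0655 to 0.382 in Day 2:Control and 0.149 to 0.458 in Day 4:Day 2), while the log2 fold changes stayed between -1.25 and -1.16 and between 2.03 and 2.16. The number of all probes that passed moved too. In Day 2:Control it was 158 with all arrays, 579 without Day 4 replicate 2, and 4 to 66 without any one of the other 8. In Day 4:Day 2 it was 14 with all arrays and 0 to 6 with any one left out. Each mhc2a call stood in 7 of 10 alternative analyses. Both were lost with the methods' t-test after adjustment (adjusted P-values 0.055 and 0.715), in limma fits of only the 6 arrays compared (0.0524 and 0.971), and with the normexp background correction, which reduced the log2 fold changes to -0.56 and 0.98. With normexp the median over all probes measured in both groups was 0.44 in Day 2:Control and -0.64 in Day 4:Day 2.

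The a2 probe (A_15_P102324) carries the accessions of a pair of alpha chain transcripts, which it cannot tell apart. Its log2 levels were 0.36, 0.24 and 0.13 on the control arrays, 1.91, 1.95 and 2.05 on the Day 2 arrays, and 0.99, 0.74 and 0.81 on the Day 4 arrays. The groups did not overlap, and Day 2 was highest, the opposite order to that of mhc2a on the same day. All 3 Day 2 arrays measured the probe, against 2 control arrays, and on Day 2 the signal was higher by at least 3.21-fold, taking the lowest signal that counts as well above background where the control array did not measure it (fitted log2 fold change 1.72, SE 0.13, adjusted P-value 0.00981). On Day 4 only 1 array measured it, and the fitted log2 fold changes of 0.61 over control and of -1.11 over Day 2 did not pass (adjusted P-values 0.268 and 0.100). The call in Day 2:Control stood without Day 2 replicate 1, Day 4 replicate 1 or Day 4 replicate 2 and was lost without any one of the other 6 arrays (adjusted P-values 0.0533 to 0.204, log2 fold changes 1.62 to 1.82 over the 9 omissions). It stood in 7 of 10 alternatives and was lost with the methods' t-test after adjustment (adjusted P-value 0.0713), in the limma fit of only the 6 arrays compared (0.0524), and with normexp, at a log2 fold change of 1.02. The normexp median in Day 2:Control over all probes measured in both groups was 0.44.

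A different course was seen for mhc2dga, an alpha chain gene that stands beside the beta chain gene mhc2dgb in the RefSeq table. Of its probes, A_15_P110361 had log2 levels of 2.82, 2.53 and 2.61 on the control arrays, 2.28, 2.32 and 2.31 on the Day 2 arrays, and 1.4, 1.72 and 1.50 on the Day 4 arrays, where 2 of 3 arrays measured it. The second probe, A_15_P115373, had 2.64, 2.43 and 2.56 in control, 2.21, 2.1 and 2.38 on Day 2, and 1.27, 1.84 and 1.47 on Day 4, measured on all 9 arrays. A further probe, A_15_P116626, was linked to mhc2dga only by a clone name in its description and was measured on no array. Both of the measured probes were lower on every Day 2 array than on any control array, and lower still on every Day 4 array.

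In Day 4:Control the log2 fold changes of these probes were -1.15 (SE 0.16, P-value 0.000408, adjusted 0.0867) and -1.11 (SE 0.17, P-value 0.000785, adjusted 0.129). On Day 2 they were -0.35 and -0.31 (adjusted P-values 0.572 and 0.740). None of these values passed. The Day 4:Control value of A_15_P115373 passed when Day 4 replicate 2 was left out (adjusted P-value 0.0493), and both Day 4:Control values passed in 6 of 10 alternative analyses. Of all probes, 60 passed there in the main fit, 80 without that array and 293 to 973 in those alternatives.

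Of the beta chains, the mhc2dab probe A_15_P103002 (danRer2 chromosome 8, 29741619 to 29741678, minus strand) was measured on all 9 arrays. Its log2 levels were 2.1, 2.05 and 2.14 on the control arrays, 2.69, 2.65 and 2.78 on the Day 2 arrays, and 2.68, 2.87 and 2.52 on the Day 4 arrays. All arrays of both sound-exposed groups lay above all control arrays, and the Day 2 and Day 4 arrays overlapped. The log2 fold change was 0.60 in Day 2:Control (SE 0.14, P-value 0.00479, adjusted 0.167) and 0.56 in Day 4:Control (SE 0.15, P-value 0.00931, adjusted 0.325), and neither passed. It passed in Day 2:Control without Day 4 replicate 2 (adjusted P-value 0.0491) and in 7 of 10 alternatives. Of all probes, 158 passed there in the main fit, 579 without that array and 222 to 1014 in those alternatives. In Day 4:Day 2 the fitted value was -0.05 (SE 0.15, adjusted P-value 0.874).

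The mhc2dgb probe (A_15_P102152), for the beta chain next to mhc2dga, had log2 levels of 3.28, 3.03 and 3.13 on the control arrays, 2.74, 2.72 and 2.76 on the Day 2 arrays, and 1.99, 2.28 and 2.07 on the Day 4 arrays. The groups did not overlap and were ordered control, Day 2, Day 4 from high to low, as for both mhc2dga probes. The log2 fold change was -0.41 in Day 2:Control (SE 0.14, adjusted P-value 0.375), -1.08 in Day 4:Control (SE 0.15, P-value 0.000350, adjusted 0.0793) and -0.67 in Day 4:Day 2 (SE 0.15, adjusted P-value 0.272). The Day 4:Control value, a 2.11-fold lower signal, passed in 6 of 10 alternatives, where 293 to 973 of all probes passed, against 60 in the main fit. Over the 9 arrays the mhc2dgb signal and that of the mhc2dga probe A_15_P115373 had a Pearson correlation of 0.976, given as a description, since arrays share a pool and a slide.

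Invariant chain transcripts were read by 3 probes, all measured on all 9 arrays. The cd74a probe (A_15_P119159, called iclp1 on the array) had log2 levels of 8.56, 8.48 and 8.59 in control, 9.06, 8.87 and 9.08 on Day 2, and 8.77, 8.86 and 8.71 on Day 4. Its groups did not overlap, with Day 2 highest and Day 4 between Day 2 and control. The log2 fold change was 0.46 in Day 2:Control (SE 0.11, P-value 0.00735, adjusted 0.213), a 1.38-fold difference that lies under the fold threshold, and 0.18 in Day 4:Control (SE 0.12, adjusted P-value 0.515), beside a median of 0.12 over all probes measured in both groups.

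The gene cd74b (iclp2 on the array) has a pair of probes on danRer2 chromosome 5. A_15_P112425 (4016117 to 4016176) had log2 levels of 5.61, 5.51 and 5.59 in control, 6.37, 6.24 and 6.32 on Day 2, and 5.92, 6.17 and 5.83 on Day 4. Its groups followed the same order as those of cd74a and did not overlap. The log2 fold change was 0.74 in Day 2:Control (SE 0.14, P-value 0.00180, adjusted 0.0997) and 0.37 in Day 4:Control (SE 0.15, adjusted P-value 0.508). The Day 2:Control value, 1.67-fold, passed without Day 4 replicate 2 (adjusted P-value 0.0249) and in 7 of 10 alternatives. As for mhc2dab, 158 of all probes passed there in the main fit, 579 without that array and 222 to 1014 in those alternatives.

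The other cd74b probe, A_15_P105312 (4016759 to 4016818), had log2 levels of 4.96, 6.08 and 6.09 in control, 6.48, 6.84 and 6.82 on Day 2, and 6.57, 6.03 and 5.78 on Day 4. Control replicate 1 stood 1.12 below the next control array, whereas on A_15_P112425 the same array was the highest of the 3. Its log2 fold change in Day 2:Control was 1.00 (SE 0.36, adjusted P-value 0.430), and without Control replicate 1 it was 0.59. In Day 4:Control the value was 0.51 with all arrays, 0.053 without Control replicate 1, 0.96 without Control replicate 3 and -0.051 without Day 4 replicate 1, so that neither its size nor its direction was settled there.

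**Figure D2:**
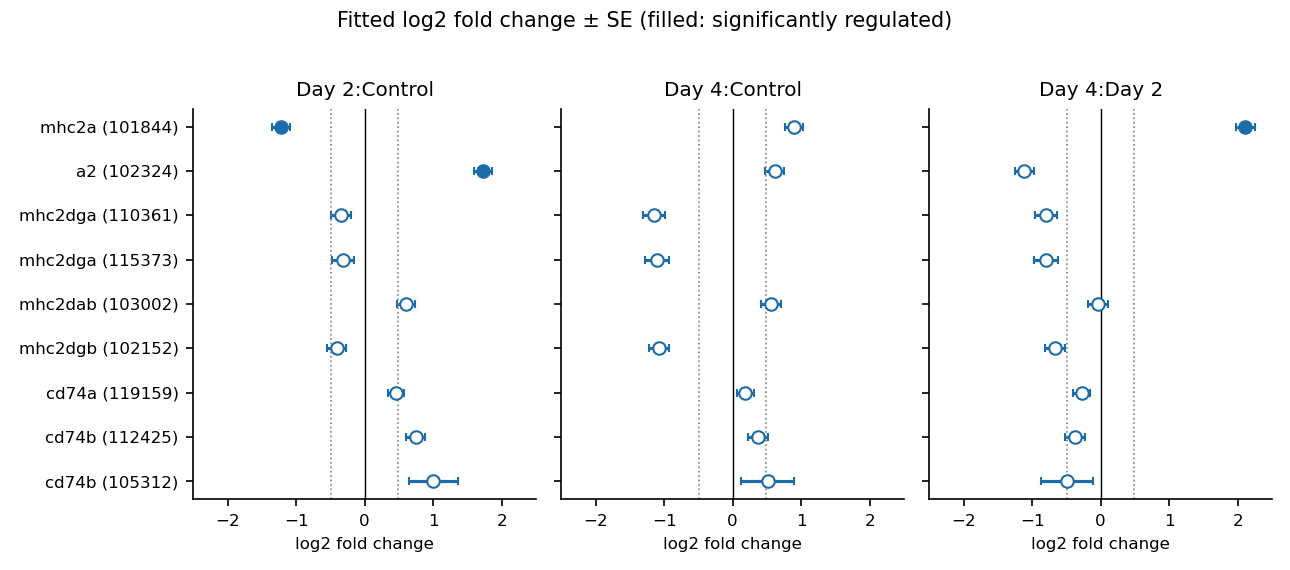
Fitted log2 fold change ± SE (horizontal axis) of the 9 probes in the 3 comparisons, from the limma model with 3 arrays in each group. Filled points were significantly regulated and dotted lines mark a 1.4-fold change. Filled points are mhc2a and a2 in Day 2:Control and mhc2a in Day 4:Day 2.

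The remaining probes gave no level to compare. These were a second mhc2dab probe (A_15_P111467, danRer2 chromosome 8, 29740384 to 29740443, minus strand), the beta chain gene mhc2deb (A_15_P119806), a class II-like fragment (A_15_P105342, chromosome 20, 18558816 to 18558875) and a beta chain-like fragment (A_15_P108431, chromosome 5, 46851709 to 46851768). Among the further probes, those of mhc2dhb (A_15_P119166), mhc2d8.45b1 (A_15_P121494) and an alpha chain transcript named TC282024 (A_15_P116626) were the same. The description of TC282024 holds a clone name that is a RefSeq synonym of mhc2dga. All 7 were well above background on none of the 9 arrays, with log2 levels of -3.47 to -0.06. Their highest values came from slide 3, and on the other slides none exceeded -2.1. The second mhc2dab probe thus said nothing about the difference seen with the first, and TC282024 said nothing about those of the other mhc2dga probes.

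The rfx2 probe (A_15_P101003, danRer2 chromosome 8, 16972072 to 16972131) stands for a transcription factor of the RFX family. It had log2 levels of 0.17, 0.25 and 0.31 in control, -0.03, 0.24 and 0.29 on Day 2, and -0.02, -0.59 and -0.95 on Day 4. All control arrays measured it, against 1 array on Day 2 and 1 on Day 4. No fold change is given for Day 4:Control, since the lowest signal that counted as well above background averaged 0.74 on the Day 4 arrays, above the control mean of 0.24. The rfx2 probe was significantly regulated in no comparison, so that leaving it out could not change the counts of significantly regulated probes.

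Read over all 11 probes, 5 were higher on every Day 2 array than on any control array and 1 was lower, where 15.6% and 8.8% of all probes were. On Day 4, 5 were higher and 1 was lower, where 15.6% and 3.52% of all probes were. The probes higher on both days were a2, mhc2dab, cd74a and the cd74b probe A_15_P112425. For a2 only 1 Day 4 array and 2 control arrays measured the probe, so that its Day 4 order includes signal that was not well above background. The 1 probe lower on Day 4 was rfx2, which only 1 Day 4 array measured. Among the 11, no class II or invariant chain probe was lower on every Day 4 array than on any control array. The mhc2a probe was lower on Day 2 and higher on Day 4, and A_15_P105312 was higher on Day 2 and overlapped control on Day 4. Of the 6 further probes, the 3 that were measured were lower on both days. The comparisons with control share the control arrays.

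The slide of an array was taken from its scan identifier, since the barcode field holds a placeholder on some arrays. By this identifier each slide held a control and a Day 2 array, while slide 2 held no Day 4 array and slide 3 held 2, a layout other than that of the methods, which put every group on every slide. Differences were also taken between arrays of the same slide. The mhc2a difference between Day 2 and control was -1.18, -1.16 and -1.32 on slides 1, 2 and 3, and that of a2 was 1.55, 1.70 and 1.92. For mhc2dab the same differences were 0.59, 0.59 and 0.64, for cd74a 0.50, 0.39 and 0.49, and for A_15_P112425 of cd74b 0.76, 0.73 and 0.74. Every one of these probes thus kept its direction on each slide. By the scan identifier Day 4 and control shared slides 1 and 3, and there mhc2dgb differed by -1.29 and -0.96 and mhc2a by 0.84 and 0.89. The exception was A_15_P105312 of cd74b, where the Day 4 difference was 1.61 on slide 1, which holds Control replicate 1, and -0.19 on slide 3.

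**Figure D3:**
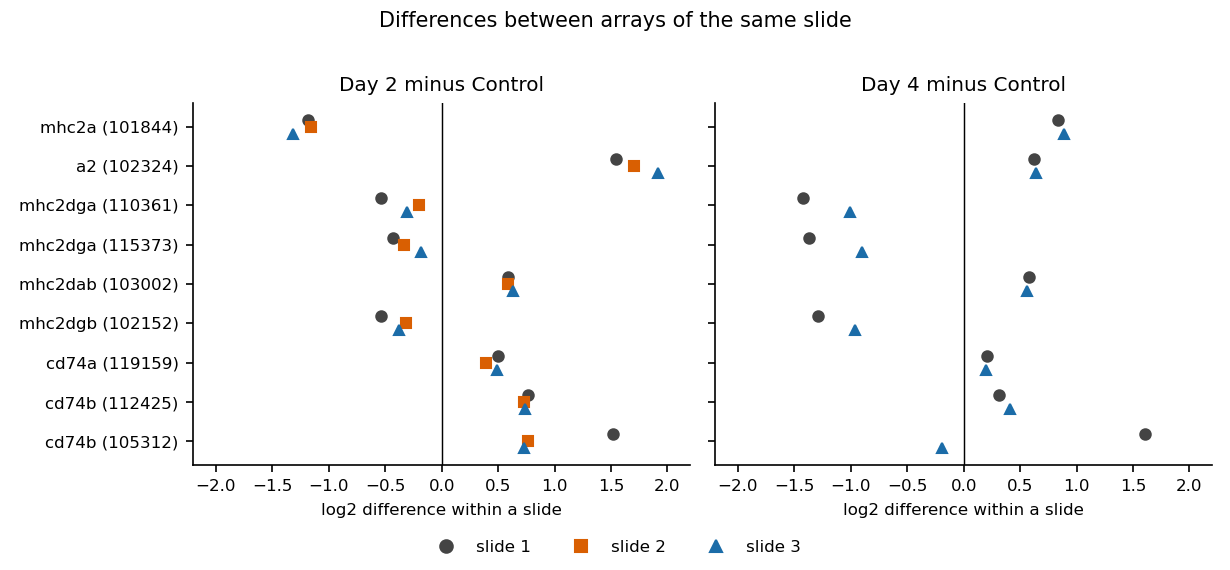
Log2 differences between arrays of the same slide (horizontal axis), Day 2 minus control on 3 slides and Day 4 minus control on the slides 1 and 3 that hold both. On slide 3 the mean of the Day 4 arrays was used. The mhc2a probe lies at -1.18, -1.16 and -1.32 on Day 2, and only A_15_P105312 of cd74b lies on both sides of zero on Day 4.

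For each probe measured on all 9 arrays, the probes outside the class II set with the most similar course were sought among 1288 probes whose group means differed by at least 1.4-fold. Nearest to mhc2a were AB062116, a transcript of the stress chaperone HSP70 (Pearson r 0.994), lin37, a subunit of a cell cycle repressor complex (0.986), and fbxo32, a ubiquitin ligase subunit known from muscle wasting (0.983). Nearest to mhc2dab were socs1a, an inhibitor of cytokine signaling (0.991), slc16a9a, a member of the monocarboxylate transporter family (0.990), and an unnamed cDNA clone (0.986). The cd74a probe lay closest to lipg, an endothelial lipase (0.991), tfpia, an inhibitor of tissue factor (named tfpib on the array, 0.991), and tnfrsf1a, a receptor of tumor necrosis factor (0.989).

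Beside A_15_P112425 of cd74b stood tspan36, a tetraspanin (0.990), adam8a, a leukocyte metalloproteinase (0.989), and cndp2, a dipeptidase (0.988). For A_15_P105312, with its low control array, the nearest were capn1a, bcl7bb and stxbp6, at 0.946, 0.898 and 0.894. Nearest to mhc2dgb were pvalb, the calcium buffer parvalbumin (0.996), actc1b, a muscle actin (named acta1 on the array, 0.993), and nme2b.2, a nucleoside diphosphate kinase (0.981). Nearest to the mhc2dga probe A_15_P115373 were dcaf13 (0.983), nme2b.2 (0.978) and grna.2, a granulin (0.977). These correlations are over 9 arrays of 3 pools, so that they describe the order of 3 group means and little more.

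The genes that switch on and load class II molecules were read from a list of 29 genes, of which 15 were matched to 30 probes. The matched genes did not include ciita, the master activator of class II transcription, or the RFX complex genes rfx5, rfxap and rfxank, and these were not analysed here. On Day 2, 2 of the 30 probes were significantly higher and 1 was significantly lower, where 0.735% of all probes passed in either direction. Neither of the comparisons with Day 4 gave any. The 24 probes measured in both groups had a median log2 fold change of 0.17 in Day 2:Control, beside 0.04 over all probes measured in both. In Day 4:Control the median was 0.06 over 17 probes, beside 0.12 over all.

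The probes that rose belong to ctss1, a zebrafish gene of cathepsin S, the protease that makes the last cut of the invariant chain in mammals. A_15_P111826 had log2 levels of 4.09, 3.93 and 4.08 in control, 5.41, 5.37 and 5.44 on Day 2, and 4.72, 4.91 and 4.63 on Day 4. A_15_P120314 had 1.70, 1.46 and 1.53 in control, 2.92, 2.84 and 2.85 on Day 2, and 2.1, 2.04 and 1.92 on Day 4, where 2 of 3 arrays measured it. Both were highest on Day 2 with no overlap. Their log2 fold changes in Day 2:Control were 1.37 (SE 0.13, adjusted P-value 0.0179) and 1.31 (SE 0.11, adjusted P-value 0.0152). Another ctss1 probe (A_15_P103483) had a value of 0.10 (SE 0.20, adjusted P-value 0.952), so that the probes of this gene disagreed.

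The probe that fell was A_15_P119516 of ctslb, a cathepsin L gene. It had log2 levels of 1.69, 1.51 and 1.71 in control, 0.27, 0.39 and 0.53 on Day 2, and 1.02, 0.84 and 1.27 on Day 4, where 2 of 3 arrays measured it. In Day 2:Control it fell by 1.24 on the log2 scale (SE 0.16, adjusted P-value 0.0450). A second ctslb probe (A_15_P115802) had a value of -1.0 that did not pass (SE 0.15, adjusted P-value 0.0575), and the remaining one was well above background on no array. Over the whole list, the 17 measured probes for proteases and other processing genes had a median log2 fold change of 0.27 in Day 2:Control, and the 7 measured probes for transcription regulators had one of -0.01. Of these 7, 3 were higher and 4 lower, from -0.22 to 0.73. The highest was irf8 (0.73, SE 0.12, adjusted P-value 0.0778), which did not pass. The stat1b probe was not among the 7, since 1 Day 2 array and no control array measured it. Its fitted value of 1.75 (SE 0.24, adjusted P-value 0.0513) did not pass and includes signal that was not well above background. No difference between the processing and regulator sets was tested.

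**Figure D4:**
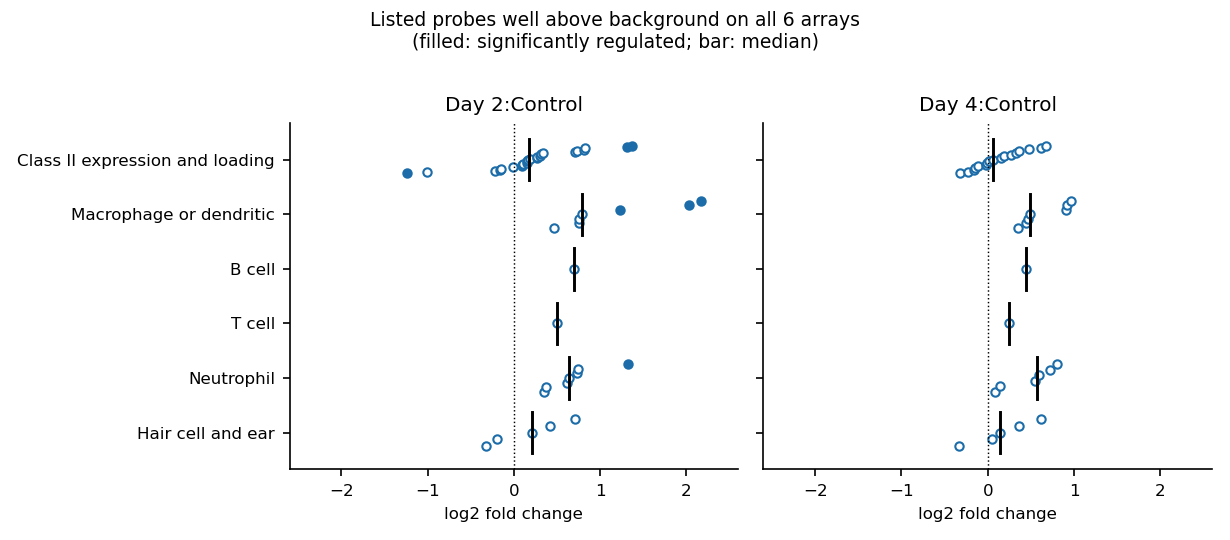
Log2 fold change (horizontal axis) of probes that all 6 arrays measured, in Day 2:Control and in Day 4:Control. The lists drawn are class II expression and loading, macrophage or dendritic, B cell, T cell, neutrophil, and hair cell and ear. The pituitary, red cell and slow muscle lists are not drawn. Filled points were significantly regulated and bars are list medians. In Day 2:Control all 7 measured macrophage or dendritic probes lie above zero, and the class II expression and loading list has a median of 0.17.

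Markers of cells that carry class II molecules were set beside these values. Of 9 probes for 7 macrophage or dendritic genes, all 7 that were measured in both groups were higher on Day 2 than in control. Their median log2 fold change was 0.78, beside 0.04 over all probes measured in both groups. Of the 9 probes, 3 were significantly regulated, where 0.735% of all probes were. The 3 were mpeg1.1, a macrophage perforin (1.23, adjusted P-value 0.0256), and both probes of 1 gene, mfap4.1, a macrophage marker in zebrafish (2.17 and 2.04, adjusted P-value 0.00923 each). The summed level of the list, in multiples of the array median, was 190 to 205 on control arrays, 402 to 440 on Day 2 and 283 to 351 on Day 4. Most of the control sum was coro1a and lcp1 (mean log2 levels 6.45 and 5.74 in control). Their log2 fold changes in Day 2:Control, 0.76 each, did not pass (adjusted P-values 0.0778 and 0.242). The sum is therefore no measure of mpeg1.1 and mfap4.1 alone. Only the probe of csf1ra, the receptor that macrophages need to grow, was well above background on no array.

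Of 9 listed B cell genes, ighm, the heavy chain of immunoglobulin M, was measured on all arrays, with a log2 fold change of 0.69 in Day 2:Control (SE 0.14, adjusted P-value 0.114) and 0.44 in Day 4:Control (SE 0.15, adjusted P-value 0.429). The summed level of the 2 matched B cell probes was 204 to 228 in control, 336 to 370 on Day 2 and 273 to 361 on Day 4. Nearly all of this sum was ighm (mean log2 level 7.77 in control). The other probe, of blnk (-1.78 in control), was measured on 1 Day 2 array and on no control or Day 4 array. Among T cell genes, lck, a kinase of the T cell receptor, was measured at 0.50 in Day 2:Control (SE 0.14, adjusted P-value 0.272), while the probes of rag1 and rag2 were well above background on no array. The log2 level of lck was 1.4 ± 0.11 in control, 1.90 ± 0.08 on Day 2 and 1.68 ± 0.18 on Day 4 (SD, n = 3 arrays each). The summed level of these 3 probes, 2.72 to 3.16 in control, 3.71 to 4.44 on Day 2 and 3.50 to 4.85 on Day 4, holds the background of rag1 and rag2 and is no measure of T cells. The probe of ifng1, the interferon that induces class II genes in mammals, was well above background on no array.

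Genes listed as neutrophil markers, which do not define class II cells, were also read. Whether neutrophils were the source of their signal was not tested. The probe of mpx, the myeloperoxidase that marks neutrophils in zebrafish, was well above background on no array. All 7 measured probes, for lyz, mmp9, mmp13a and nccrp1, were higher in Day 2:Control, with a median of 0.64, beside 0.04 over all probes measured in both groups. Of these, mmp13a, a collagenase, passed (1.32, SE 0.12, adjusted P-value 0.0171), where 0.735% of all probes did. The summed level of the whole list was 237 to 259 in control, 340 to 375 on Day 2 and 322 to 472 on Day 4. Most of the control sum came from both probes of nccrp1 (mean log2 levels 6.55 and 5.60 in control). Their log2 fold changes in Day 2:Control, 0.35 and 0.38, did not pass (adjusted P-values 0.656 and 0.572). The part of any of these cells in the class II values was not tested.

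The labelled tissue was checked with 8 probes for hair cell and ear genes. Of these, 5 were measured in all groups, among them stm, an otolith matrix protein, and myo7aa, a hair bundle myosin. None was significantly regulated, while otofa and oc90 were well above background on no array. Pituitary hormone genes differed between the pools, with 5 of 8 probes significantly higher on both days, namely gh1 (A_15_P112144), pomca, cga and both of lhb, where 0.735% and 0.279% of all probes passed. The other gh1 probe and the probes of prl and tshba were well above background on no array, so that they gave no level to compare. No control array measured pomca or cga, 1 measured A_15_P112144, and cga was measured on 1 array on each day. These levels thus include signal that was not well above background. The summed level of the list was 4.89 to 5.99 in control, 84.5 to 95.7 on Day 2 and 43.5 to 56.3 on Day 4. The slow muscle gene tnnc1b was lower on both days, at log2 fold changes of -1.83 and -1.61 (adjusted P-values 0.00981 and 0.0259). For tnni1b, of the same list, the values of -0.86 and -0.65 did not pass (adjusted P-values 0.127 and 0.369). Its probe was measured on 2 control arrays, 1 Day 2 array and no Day 4 array. The myl7 probe was well above background on no array. The summed level of the 4 red cell probes overlapped between all groups, at 1960 to 2170 in control, 1940 to 2220 on Day 2 and 1750 to 2810 on Day 4, and most of this sum was hbba1 (mean log2 level 10.93 in control). Of the other globin probes, hbba2 had a log2 fold change of 0.82 in Day 2:Control (SE 0.18, adjusted P-value 0.168) and hbaa1 one of -0.60 in Day 4:Control (SE 0.13, adjusted P-value 0.246), and neither passed. The part of such tissue in the class II values was not tested.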

How the data were processed

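The authors deposited scanner output from 9 one-color Agilent zebrafish arrays, extracted with Feature Extraction 9.5.1 per the labels. The intensity used is the processed signal that the authors deposited, corrected for background but not scaled between arrays. Tables holding the authors' own fold changes and P-values were not used, nor were their 6 columns of normalized values. The control spots were removed, as were 75 with an outlier flag. No value lay at or below 0, log2 was taken, the 50th percentile of the array was subtracted and the spots of a probe were averaged. All 21495 probes were fitted with limma 3.58.1 in R 4.3.3 (lmFit, eBayes), with group and slide as terms. The slide was taken from the scan identifier, which for Day 4 differs from the layout that the methods describe. Between 39.5% (Day 4 replicate 2) and 56.9% of spots were well above background, and the number of arrays limits the precision. The arrays of slide 3, among them Day 4 replicates 2 and 3, were scanned on a different day from the others. Their median local background was 129 to 153.5, against 63.5 to 74 on the others, so that signal over background was not balanced between Day 4 and the other groups. The model was also run on simulated data with independent noise on each array and known changes on Day 2 only. That simulation held no deviations shared by a slide or a pool, so that it does not show how the model handles them. Tables were handled in Python 3.11.15 with pandas 2.3.3 and numpy 2.4.6, and figures were drawn with matplotlib 3.10.9.

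Members and lists were chosen with earlier results of these data known. Named are every member probe, listed probes that passed in at least 1 comparison, listed probes singled out after their values were seen (the other probes of ctss1, ctslb and gh1, and irf8, stat1b, coro1a, lcp1, csf1ra, ighm, blnk, lck, rag1, rag2, ifng1, mpx, lyz, mmp9, nccrp1, prl, tshba, tnni1b, myl7, hbba1, hbba2, hbaa1, stm, myo7aa, otofa and oc90), and the 3 most similar probes of each fully measured class II or invariant chain probe. RefSeq names (assembly GRCz12tu) were matched to 10269 probes, and none of its coordinates are printed. Positions are those of danRer2 in the files. No sequences are given.

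Control and Day 2 arrays with 1 number in common shared a slide, and their deviations from the group means were correlated (0.504, 0.267 and 0.542 over 8024 probes well above background on all arrays). The numbers did not pair the Day 4 arrays in this way (-0.06 to 0.12). Nor did the slides of the scan identifier, where Day 4 arrays and the control or Day 2 arrays of the same slide gave -0.02 to 0.12. Alternatives were other scalings, background correction, blocks, filters and tests, and the omission of each array.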

Additional observations from a re-analysis of the deposited data

Results flagged for a closer look

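The mhc2a probe was flagged because its Day 2 and Day 4 effects differed, and the contrast given here is that same difference. It is therefore no separate test of the flag. The Day 4:Day 2 log2 fold change was 2.11 (limma adjusted P-value 0.0247), with all 3 Day 4 arrays above and all 3 Day 2 arrays below all control arrays. The call was lost without any one of 8 of the 9 arrays (adjusted P-values 0.149 to 0.458) and stood in 7 of 10 alternatives. Its P-value measures only the spread between hybridizations of 1 pool per group. Groups of 3 arrays are too small for a test of single outlying arrays.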

How the results depend on the processing

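In Day 2:Control 2 class II and invariant chain probes passed (158 of all probes, 118 higher and 40 lower). This became 4 with the 75th percentile scaling (629 of all probes, 410 higher and 219 lower), quantile normalization (762), no slide block (506), a random slide block (665), and a variance trend with robust estimation (1014), and 5 without dim probes (902). It became 0 with normexp (1) and with only the 6 arrays compared (11). The methods' t-test gave 2 (222) after Benjamini-Hochberg adjustment, namely mhc2dab and A_15_P112425 of cd74b in place of mhc2a and a2, and 4 (1148) before it. In Day 4:Control, where 0 passed (60, 21 higher and 39 lower), these settings gave in the same order 1 (293, 157 higher and 136 lower), 2 (488), 1 (298), 2 (360), 3 (973), 4 (960), 0 (0) and 0 (25), and the t-test gave 0 (0) and 3 (678). In Day 4:Day 2, where 1 passed (14, 8 higher and 6 lower), they gave 2 (369, 147 higher and 222 lower), 2 (628), 2 (184), 2 (291), 2 (962), 3 (954), 0 (0) and 0 (0), and the t-test gave 0 (0) and 2 (632). With the replicate number as a block in place of the slide, the pairing left the class II counts at 2, 0 and 1, and 89, 57 and 13 of all probes passed. Leaving out 1 array at a time gave 0 to 4 class II probes in Day 2:Control (4 to 579 of all), 0 to 0 in Day 4:Control (3 to 80) and 0 to 1 in Day 4:Day 2 (0 to 6). The causes of these differences were not tested. Over all probes, the middle log2 fold change was 0.12 (Day 2:Control), 0.29 (Day 4:Control) or 0.24 (Day 4:Day 2), against 0.06, 0.19 and 0.21 with the 75th percentile scaling and -0.00, 0.01 and 0.01 with quantile normalization. Directions turned with normexp in Day 2:Control for mhc2dgb (0.068) and for the mhc2dga probes A_15_P115373 (0.095) and A_15_P110361 (0.085), and in Day 4:Control for cd74a (-0.12). Normexp also moved the array as a whole. Over all probes measured in both groups, its middle log2 fold change was 0.44 (Day 2:Control), -0.14 (Day 4:Control) and -0.64 (Day 4:Day 2). The main fit gave 0.04, 0.12 and 0.06 for these. Over single omitted arrays, the Day 4:Control value of cd74b probe A_15_P105312 ranged between -0.051 and 0.96, and the Day 4:Day 2 value of mhc2dab between -0.13 and 0.047. For the 9 probes in the figures, the other alternatives fitted over several slides kept the direction of every fold change, while within slide 1 the Day 4:Day 2 value of A_15_P105312 was 0.088, against a fitted -0.49, and within slide 3 its Day 4:Control value was -0.19. Signal over background limits the rest: 7 class II probes were measured on no array, and the a2 probe on 2 of 3 control arrays and 1 of 3 Day 4 arrays.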
